A study of Homo sapiens with 6 samples.

Results

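The WNT genes described here were taken by symbol from transcript profiles of 4 atypical teratoid/rhabdoid tumor (AT/RT) cell lines. They comprise every gene named WNT or FZD followed by a number, DKK1 to DKK4, LRP5, LRP6, CTNNB1, APC, AXIN1, AXIN2, LEF1, TCF7, TCF7L1, TCF7L2, NKD1, RNF43 and ZNRF3. The rule found 46 of the 36532 genes in the files. No measured value entered it, but it was chosen with earlier results of these data known. The 46 genes were 19 ligands, 10 receptors, 2 co-receptors, 4 secreted antagonists, 3 genes of beta-catenin and its destruction complex, 4 nuclear factors and 4 feedback targets. AT/RT is a tumor of the central nervous system of young children. Its diagnosis rests most often on loss of SMARCB1, a subunit of the SWI/SNF chromatin remodeling complex. The lines are named CHLA followed by 02, 04, 05 or 06, were obtained from a cell bank and grow in suspension. All of them were untreated and were cultured in DMEM:F12 with 20 ng/mL EGF, 20 ng/mL basic FGF and 2% B-27 supplement. Total RNA was sequenced as 6 libraries, namely 2 technical replicates of CHLA 04, 2 of CHLA 06 and a single library of each other line. Every line was thus represented by 1 biological sample, and no normal tissue or other tumor was measured beside them. The comparison addressed here is between the lines, and no test was made. A difference is given beside the spread of the technical replicates, which does not include the spread between cultures.

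WNT proteins are lipid-modified secreted signals. In the canonical pathway, a WNT protein joins a Frizzled receptor, encoded by an FZD gene, to the co-receptor LRP5 or LRP6. The destruction complex, built on APC and the axins, then no longer degrades beta-catenin, which enters the nucleus and activates genes together with the TCF and LEF factors. AXIN2, NKD1, RNF43 and ZNRF3 are target genes that dampen the pathway in return, and the ubiquitin ligases RNF43 and ZNRF3 do so by removing Frizzled receptors from the membrane. Other WNT proteins, such as WNT5A and WNT5B, act mostly without beta-catenin. The pathway patterns the neural tube and the neural crest in the embryo.

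Values are TPM, a transcript abundance that is scaled for transcript length and for depth, and they were summed over the transcripts of a gene. In bulk RNA, fewer cells that express a gene and less RNA per cell cannot be told apart. Reads were recovered from the TPM values, and 10265899 to 20520229 reads per library fell on transcripts. A gene was counted as detected at 1 TPM or more, and as variable where its highest and lowest line differed by 1 or more in log2(TPM + 2). That difference corresponds to a 2-fold change at high levels and to a larger one near 1 TPM. The level that a count of 0 allows was set at 3 reads in a library. This floor, the intervals at the 95% level (Wilson) and the read counts all refer to counting error only. The median difference between technical replicates of the detected WNT genes was 0.17 in CHLA 04 and 0.13 in CHLA 06 in log2(TPM + 2). The largest was 1.08 for DKK3 in CHLA 04, the only one of these genes to reach 1.

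The libraries were checked against markers before the WNT genes were read. The study describes each of the lines as without SMARCB1 expression. In these files SMARCB1 had 13.5 to 26.2 TPM in all 6 libraries, and these sums over transcripts do not show which part of the gene was read. NES, VIM and TUBB3, which the study reads as markers of neural stem cells, glia and neurons in turn, were above 1 TPM in every library. PAX6, a factor of neural progenitors, had 15.8 to 36.9 TPM in the libraries of CHLA 02, CHLA 04 and CHLA 05, but only 0.604 and 0.937 TPM in the CHLA 06 libraries. SOX2, a neural stem cell factor, reached 4.03 TPM in CHLA 05 and stayed below 1 TPM in the other libraries. The 6 fibroblast markers summed to 1259 TPM in CHLA 02, to 13.5 and 24.0 TPM in the CHLA 04 libraries, to 51.2 TPM in CHLA 05, and to 1122 and 1981 TPM in the CHLA 06 libraries. In both CHLA 02 and CHLA 06, 5 of the 6 were at 1 TPM or more, against 3 in CHLA 04 and 4 in CHLA 05. However, COL1A2, the partner chain of COL1A1, had 0 and 1 reads in the CHLA 06 libraries. Of 4 epithelial markers, KRT8, KRT18 and EPCAM reached 1 TPM in CHLA 02 and CHLA 06 only, whereas CDH1 did so in CHLA 05 only, at 12.4 TPM. The sum of the 4 was 82.1 TPM for CHLA 02, 12.8 TPM for CHLA 05, at most 0.303 TPM for a CHLA 04 library and at most 110.2 TPM for a CHLA 06 library. Of 4 blood markers only CD68, which is not restricted to blood cells, reached 1 TPM, in CHLA 02 and CHLA 06, and HBB was at 0 in every line. Of 4 endothelial markers only VWF in CHLA 04 reached 1 TPM, and CDH5 was at 0 in that line. Several WNT genes described below were high in CHLA 02 and CHLA 06, the lines with the highest sums of fibroblast and of epithelial markers. The study describes epithelial, mesenchymal and neuroectodermal markers in AT/RT cells themselves. Which cells express these markers here, and how the markers relate to those results, was not tested.

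The CHLA 02 library held nearly all genes that CHLA 06 or CHLA 04 had and the remaining lines lacked. No gene had 10 TPM or more in CHLA 02 and less than 1 TPM in the other 3 lines, while the same count was 1 for CHLA 04, 1 for CHLA 06 and 73 for CHLA 05. Of 196 genes at 10 TPM or more in CHLA 06 and below 1 TPM in both CHLA 04 and CHLA 05, 195 were detected in CHLA 02, at a median of 0.571 times their CHLA 06 level with quartiles of 0.403 and 0.784. Of 36 genes defined in the same way for CHLA 04, 35 were detected in CHLA 02, at a median of 0.471 times their CHLA 04 level. Of 76 genes defined in this way for CHLA 05, only 3 were detected in CHLA 02. Whether the CHLA 02 library holds RNA of other lines was not tested. Counts of variable genes, counts of genes above or below the other lines, and folds in which CHLA 02 was the highest line are given with and without it. This holds where both technical replicates were used. Values with a replicate left out include CHLA 02.

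Most of the receptors, the destruction complex and the nuclear factors were expressed in all lines, whereas 10 of the 19 ligands stayed below 1 TPM in every line. Of the 46 genes, 34 were detected in at least 1 line, where 43.9% of all genes were. In every line 21 of the 46 were detected, where 33.4% of all genes were. Among the 34 detected genes, 23 were variable, or 67.6%, where 43% of the 16035 detected genes of the whole files were. Their median difference between the highest and the lowest line was 1.31 in log2(TPM + 2), where that of all detected genes was 0.88. By role, 6 of 9 detected ligands, 7 of 9 receptors, 1 of 2 co-receptors, 3 of 3 antagonists, 2 of 3 genes of the destruction complex, 2 of 4 nuclear factors and 2 of 4 feedback targets were variable. Without CHLA 02, 21 of the 34 were variable, where 41.3% of all detected genes were, and FZD2 and WNT10A were the 2 lost.

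**Figure D1:**
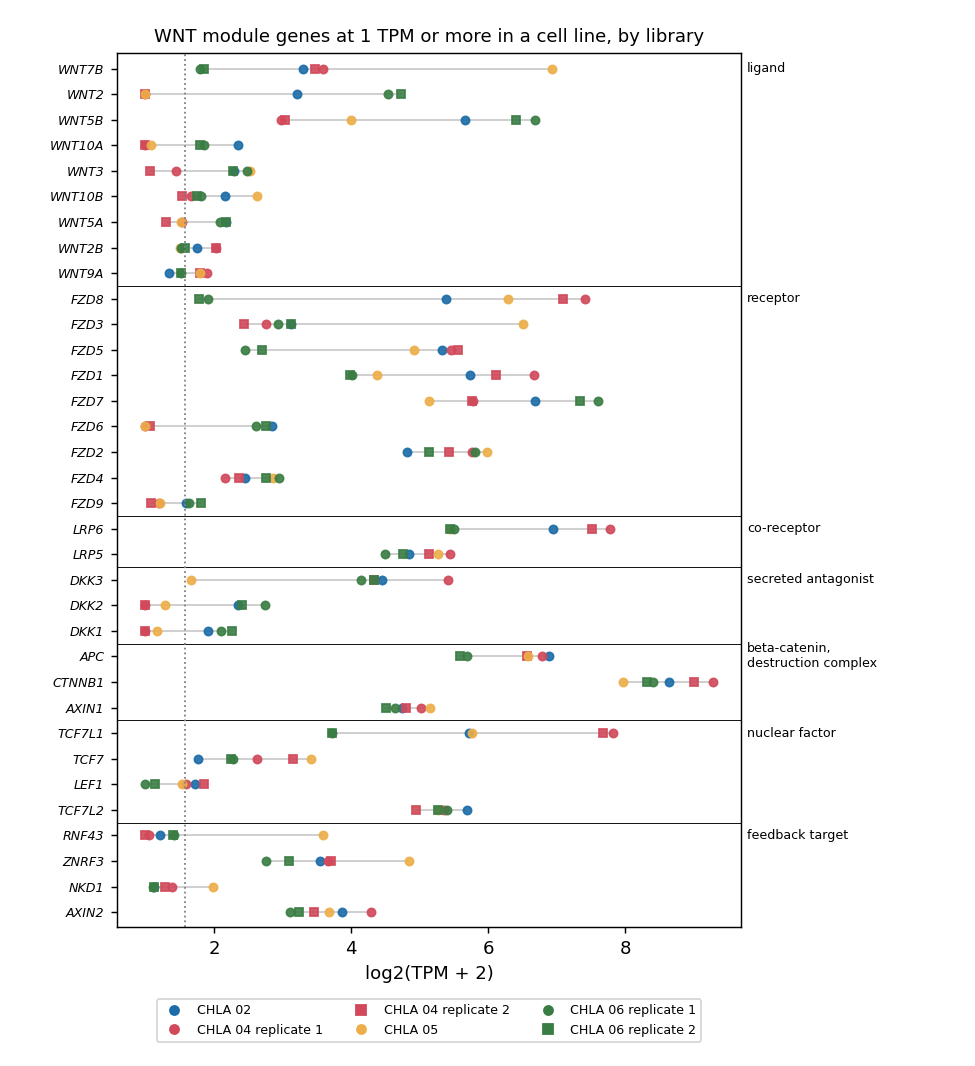
Level of the 34 detected WNT genes in each of the 6 libraries, in log2(TPM + 2), grouped by role and ordered by the difference between lines. Circles and squares of one color are technical replicates of one line, the dotted line marks 1 TPM, and the gray lines span the libraries. WNT7B, FZD3 and RNF43 lie far to the right in CHLA 05, FZD8 and TCF7L1 are highest in CHLA 04, and WNT2, WNT5B and FZD7 are highest in CHLA 06.

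The leading ligand differed between the lines. Summed over the 19 ligands, the WNT transcripts made 77.6 TPM in CHLA 02, whereas CHLA 04 had 23.8 TPM, CHLA 05 had 146.5 and CHLA 06 had 129. WNT5B held 62.4% of this sum in CHLA 02 and 71.2% in CHLA 06, whereas WNT7B held 40.2% in CHLA 04 and 82% in CHLA 05.

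WNT7B, a ligand that acts in forebrain vessels and in kidney and lung development, had the largest difference of the ligands, 5.11 in log2(TPM + 2). Its level was 7.89 TPM in CHLA 02, 10.1 and 9.08 in the CHLA 04 libraries, 120.1 in CHLA 05, and 1.48 and 1.60 in the CHLA 06 libraries. The CHLA 05 value rests on 2991 reads, with an interval of 115.8 to 124.5 TPM. CHLA 05 was thus above all other libraries and CHLA 06 below them, with 77.9-fold between these lines. The lines CHLA 02 and CHLA 04 lay close together in between, with the CHLA 02 interval of 6.87 to 9.06 TPM just under the lower CHLA 04 value.

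WNT2, a canonical ligand of lung and placental development, had 137 reads in CHLA 02 and 455 and 587 in the CHLA 06 replicates, and none in either CHLA 04 library or in CHLA 05. Its level was 7.29 TPM in CHLA 02 and 21.2 and 24.6 TPM in CHLA 06. The 3 libraries without reads allow up to 0.244, 0.150 and 0.158 TPM. CHLA 06, at 22.9 ± 2.41 TPM (SD, n = 2 technical replicates), was at least 93.8-fold above the highest of these floors. Nearly all of it came from 1 coding transcript of 2907 bases, ENST00000265441, which held 89.8% to 95.2% of the gene in the 3 libraries with reads.

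WNT5B, a ligand of skeletal and limb development, was expressed in all libraries but over a wide range. It stood at 48.4 TPM in CHLA 02, 5.87 and 6.16 in the CHLA 04 replicates, 13.9 in CHLA 05, and 100.3 and 83.2 in the CHLA 06 replicates. The lines did not overlap, and the order was CHLA 06, CHLA 02, CHLA 05 and CHLA 04, with 15.3-fold from the first to the last.

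The 10 annotated transcripts of WNT5B start at several places on chromosome 12, and reads were assigned to the distal starts in 3 of the 4 lines. The gene runs from 1529891 to 1647243 on the plus strand of GRCh38. The distal group of 2 transcripts starts at 1529891 and 1530819, and its last start lies 98.4 kb before the first of the proximal starts at 1629197. Transcripts of the distal group had 6.67 TPM in CHLA 02 (29 reads), 2.09 in CHLA 05 (9 reads), and 21.6 and 18.8 in the CHLA 06 replicates (110 and 105 reads). They had no reads in either CHLA 04 library. The proximal group of 4 transcripts was the largest in CHLA 02, CHLA 05 and CHLA 06. It had 20.0 TPM in CHLA 02 and 4.19 in CHLA 05. The CHLA 04 libraries had 1.62 and 1.86 TPM of it, and the CHLA 06 libraries 49.3 and 44.6. In CHLA 04 the largest was 1 transcript that starts within the gene at 1644797, with 52.1% and 37.4% of the gene. Coding transcripts made 47.9% and 62.6% of WNT5B in the CHLA 04 libraries, and 93.0% and 91.6% in the CHLA 06 libraries. The distal group held 13.8% of the gene in CHLA 02, 15.0% in CHLA 05, and 21.5% and 22.6% in the CHLA 06 replicates. Transcripts of one gene share exons, and how the counting split shared reads is not given, so these shares are uncertain.

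Sequences upstream of the distal and the proximal start are shown because they differ in base composition. Capitals mark CpG dinucleotides. The first stretch is chr12:1530569-1530818, plus strand of GRCh38, and ends just before the start at 1530819. It holds 37 CpG in 250 bases, where the median of the 35116 RefSeq promoters was 11 over the same length, with quartiles of 3 and 23. The second is chr12:1628981-1629196, plus strand, from the RefSeq promoter with its start at 1629231 (GRCh38.p14), cut where the first annotated exon begins. It holds 6 CpG in 216 bases.
WNT5B distal: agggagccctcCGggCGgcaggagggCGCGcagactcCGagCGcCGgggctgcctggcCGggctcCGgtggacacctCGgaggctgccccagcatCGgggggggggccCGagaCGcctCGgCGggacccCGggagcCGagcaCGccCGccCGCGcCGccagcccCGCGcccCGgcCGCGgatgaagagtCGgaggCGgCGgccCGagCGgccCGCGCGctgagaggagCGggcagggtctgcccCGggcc
WNT5B proximal: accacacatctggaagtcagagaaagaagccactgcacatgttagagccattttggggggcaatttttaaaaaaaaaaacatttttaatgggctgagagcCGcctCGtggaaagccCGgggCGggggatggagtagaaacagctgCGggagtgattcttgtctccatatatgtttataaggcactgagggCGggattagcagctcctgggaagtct

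A second mapping of the same libraries to LTR elements, the terminal repeats and internal parts of endogenous retroviruses, gave reads in the intron behind the distal exons. Of the elements with reads there, 4 of the types MSTA and MSTA-int lie between 1548393 and 1551328 on the strand of WNT5B. They begin 17.4 kb after the last distal exon and end 23.3 kb before the next exon, and none overlaps an exon of the gene. Together they had 94 reads in CHLA 02, 2 and 9 in the CHLA 04 replicates, 40 in CHLA 05, and 179 and 214 in the CHLA 06 replicates. Scaled to 1000000 LTR reads these were 201.9 in CHLA 02, 5.63 and 17.6 in the CHLA 04 libraries, 96.6 in CHLA 05, and 399 and 445 in the CHLA 06 libraries. The order of the lines was that of the distal transcripts and of the gene as a whole. The 4 other elements with reads in this intron lie on the opposite strand and did not follow this order, with 9 reads in CHLA 02, 7 and 6 in the CHLA 04 libraries, 7 in CHLA 05, and 1 and 2 in the CHLA 06 libraries. Reads from an unspliced WNT5B transcript and from a transcript that starts in an element cannot be told apart in these files.

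**Figure D2:**
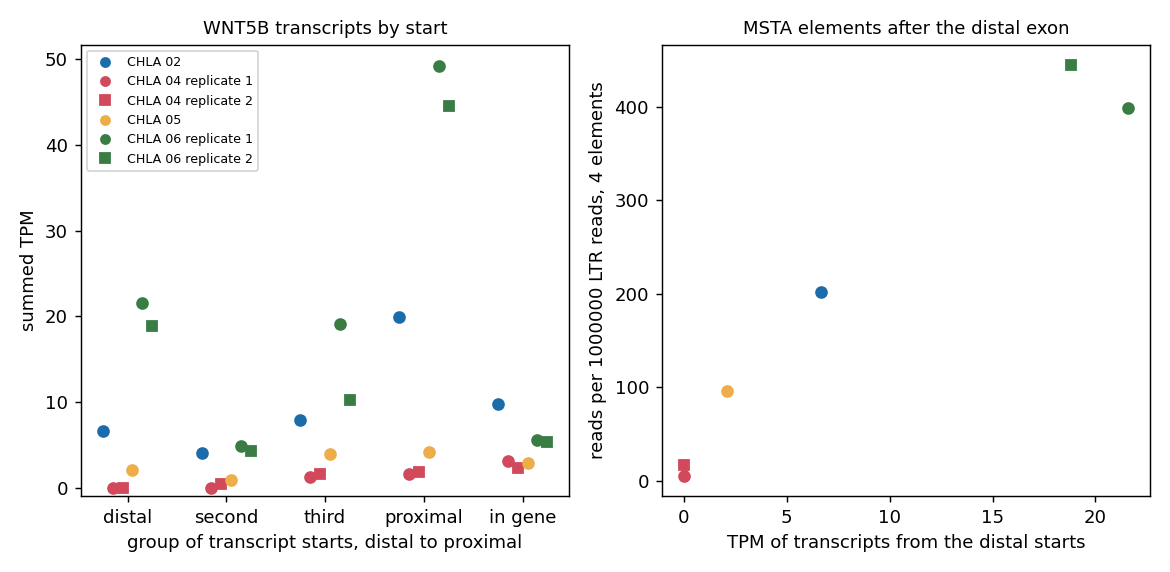
WNT5B by transcript start. Left, summed TPM of the transcripts in each group of starts, from distal to proximal, with 1 point per library. Right, reads on the 4 MSTA elements per 1000000 LTR reads against the TPM of the distal transcripts. The CHLA 06 replicates lie highest in both, at 18.8 to 21.6 TPM and 399 to 445 scaled reads, and both CHLA 04 libraries lie at 0 TPM.

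The other detected ligands were low, and 3 of them differed between lines. WNT10A, a ligand of skin and tooth development, had 3.11 TPM in CHLA 02, no reads in either CHLA 04 library, 0.12 in CHLA 05 (2 reads), and 1.61 and 1.47 in CHLA 06. WNT3, which patterns the early embryo, had 2.88 TPM in CHLA 02, 0.713 and 0.0864 in the CHLA 04 replicates, 3.75 in CHLA 05, and 3.58 and 2.86 in the CHLA 06 replicates. WNT3 was thus low in CHLA 04 alone, where the 2 libraries had 5 and 2 reads. WNT10B, known for restraining fat cell formation, had 2.49 TPM in CHLA 02, 1.17 and 0.908 in the CHLA 04 libraries, 4.20 in CHLA 05, and 1.503 and 1.37 in the CHLA 06 libraries. Its difference of 1.03 was near the limit of 1, and it was no longer variable with quantile normalization, with the maximum of technical replicates, or with CHLA 04 replicate 1 alone for that line.

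WNT5A, WNT2B and WNT9A did not vary by 1 or more. WNT5A, the close relative of WNT5B, ranged over the libraries from 0.475 TPM in CHLA 04 to 2.52 TPM in CHLA 06, and its fold of 3.64 between the lines CHLA 02 and CHLA 04, or 3.46 between CHLA 06 and CHLA 04 without CHLA 02, lies near the detection limit. WNT2B was highest in CHLA 04, at 2.08 TPM in both replicates. Its exons overlap those of ST7L on the opposite strand, so its reads are uncertain as long as the strand setting of the counting is not given. WNT9A ranged from 0.527 TPM in CHLA 02 to 1.73 TPM in CHLA 04.

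Genes not detected in any line were WNT1, WNT3A, WNT4, WNT6, WNT7A, WNT8A, WNT8B, WNT9B, WNT11, WNT16, FZD10 and DKK4. Their highest value in a single library was 1.45 TPM, for WNT4 in CHLA 04 replicate 1 with 19 reads, and the mean of that line stayed below 1 TPM. WNT3A, the ligand most often used to activate the pathway in culture, had 0 reads in all 6 libraries, which allows up to 0.242 TPM at the lowest depth. WNT1 had 2 reads, both in CHLA 05.

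Neighboring WNT genes were not expressed alike. WNT3 and WNT9B, 46 bases apart on chromosome 17, differed in that WNT9B had no reads in CHLA 02, CHLA 05 and CHLA 06, where WNT3 was detected. In CHLA 04, where WNT3 was lowest, WNT9B had 6 and 1 reads. On chromosome 2, WNT10A had 27 and 29 reads in the CHLA 06 replicates and WNT6, 6129 bases away, had 0 and 3. On chromosome 12, WNT10B had 61 reads in CHLA 05 and WNT1, 6689 bases away, had 2.

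The summed FZD level was above the summed WNT level in every line, from 256 against 129 TPM in CHLA 06 to 385 against 23.8 TPM in CHLA 04. The leading receptor also differed between the lines. The summed FZD level was 385 TPM for CHLA 04, 313 for CHLA 05, 272 for CHLA 02 and 256 for CHLA 06. FZD7 led in CHLA 02 with 37.0% and in CHLA 06 with 68.6% of the sum, FZD8 led in CHLA 04 with 39.3%, and FZD3 led in CHLA 05 with 28.5%. By library, both CHLA 04 sums, 422 and 348 TPM, were above all others, whereas the CHLA 06 sums of 282 and 230 TPM enclosed that of CHLA 02, so the order of these lines is not resolved.

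**Figure D3:**
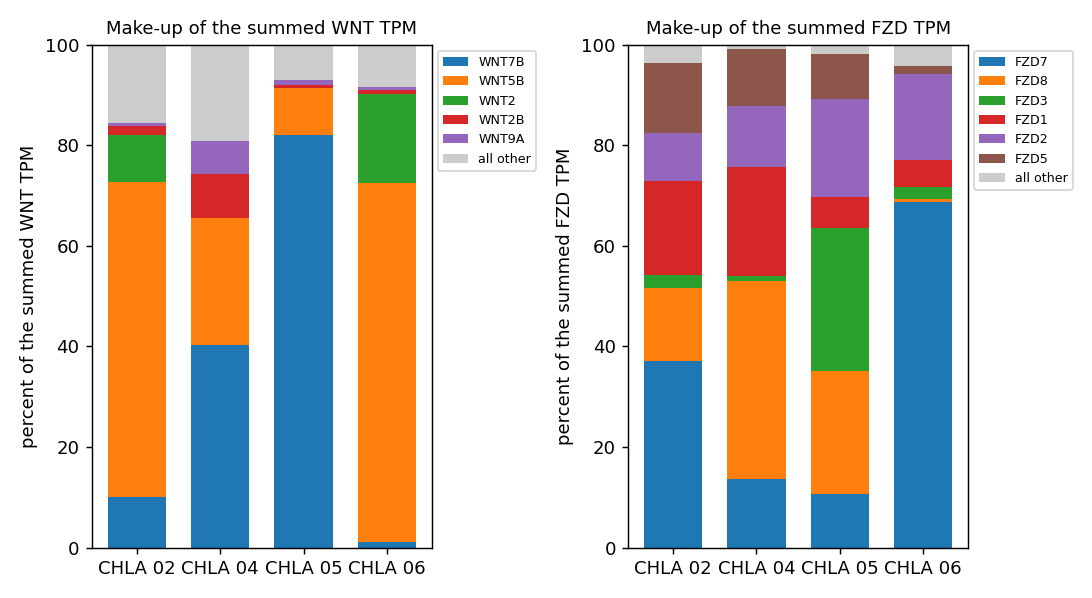
Share of each gene in the summed TPM of the 19 WNT ligands (left) and the 10 FZD receptors (right), per line, with technical replicates averaged and genes under 5% in every line pooled in gray. WNT5B is the largest share in CHLA 02 and CHLA 06 and WNT7B in CHLA 04 and CHLA 05. FZD7 is the largest in CHLA 02 and CHLA 06, FZD8 in CHLA 04 and FZD3 in CHLA 05.

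FZD8, a receptor expressed in the embryonic forebrain, had the largest range of all 46 genes. It stood at 39.8 TPM in CHLA 02, 168 and 135 in the CHLA 04 replicates, 76.6 in CHLA 05, and 1.76 and 1.42 in the CHLA 06 replicates. CHLA 06 was below all other lines, and CHLA 04 was above it by 94.9-fold, or 5.41 in log2(TPM + 2). The stretch upstream of its start is printed beside that of TCF7L1 below, since both genes were highest in CHLA 04 and lowest in CHLA 06.

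FZD3, a receptor for axon guidance and neural tube closure, stood out in CHLA 05. Its levels were 6.68 TPM in CHLA 02, 4.80 and 3.44 in the CHLA 04 libraries, 89.3 in CHLA 05, and 5.67 and 6.73 in the CHLA 06 libraries. The CHLA 05 value rests on 6314 reads, with an interval of 87.1 to 91.5 TPM. The other 5 libraries lay within 3.44 to 6.73 TPM, and the CHLA 05 line was 21.7-fold above the mean of CHLA 04.

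FZD7, a receptor of stem cells in several tissues, had the highest mean TPM over the 4 lines of all FZD genes. It had 101 TPM in CHLA 02, 52.7 and 52.3 in the CHLA 04 replicates, 33.3 in CHLA 05, and 192 and 159 in the CHLA 06 replicates. CHLA 06, at 176 ± 23.3 TPM (SD, n = 2 technical replicates), was 5.28-fold above CHLA 05.

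FZD5 and FZD1 were lowest in CHLA 06. FZD5, a receptor of the developing eye and gut, had 38.0 TPM in CHLA 02, 41.8 and 45.4 in the CHLA 04 libraries, 28.2 in CHLA 05, and 3.47 and 4.48 in the CHLA 06 libraries, and was 11.0-fold lower in CHLA 06 than in CHLA 04. FZD1, a close relative of FZD7 and FZD2, had 51.1 TPM in CHLA 02, 99.4 and 67.4 in the CHLA 04 replicates, 18.8 in CHLA 05, and 14.2 and 13.8 in the CHLA 06 replicates. Both CHLA 04 libraries lay above every other library for FZD1.

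FZD6, which takes part in planar cell polarity of skin and hair, was detected in CHLA 02 and CHLA 06 only. It had 5.18 TPM in CHLA 02, 0 and 0.104 in the CHLA 04 libraries, 0 in CHLA 05, and 4.12 and 4.75 in the CHLA 06 libraries. CHLA 02 was at least 41.1-fold above the floor of CHLA 05, and without CHLA 02 the CHLA 06 mean was at least 35.1-fold above it. The CHLA 02 level did not stand clear of that of CHLA 06. Coding transcripts made only 34.4% to 41.3% of the FZD6 sum in these libraries, and with the most abundant transcript in place of the sum the gene was no longer variable.

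FZD2 was high in all lines and varied least of the variable receptors. It had 26.1 TPM in CHLA 02, 52.5 and 41.2 in the CHLA 04 replicates, 61.2 in CHLA 05, and 54.0 and 33.2 in the CHLA 06 replicates. Both CHLA 04 libraries lay within the range of the CHLA 06 replicates, CHLA 02 was below them and CHLA 05 above. FZD4 and FZD9 did not vary by 1 or more, with FZD4 at 2.47 to 5.70 TPM and FZD9 at 0.124 to 1.502 TPM. The exons of FZD4 overlap those of PRSS23 on the opposite strand, which had up to 437 TPM, so that FZD4 is uncertain for the reason given for WNT2B.

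The co-receptors differed from each other. LRP6 had 122 TPM in CHLA 02, 217 and 180 in the CHLA 04 libraries, 41.4 in CHLA 05, and 43.3 and 41.6 in the CHLA 06 libraries. CHLA 04 and CHLA 02 were thus above CHLA 05 and CHLA 06, which were not separable, and the highest line was 4.79-fold above the lowest. LRP5, the related co-receptor known for bone mass, was not variable and lay between 20.5 and 41.5 TPM in all libraries.

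The secreted antagonists of the DKK family, which block LRP5 and LRP6 or, for DKK3, act differently, were all variable where detected. DKK3 had 19.8 TPM in CHLA 02, 40.5 and 18.1 in the CHLA 04 replicates, 1.19 in CHLA 05, and 15.7 and 18.2 in the CHLA 06 replicates. CHLA 05 alone was low, with 13 reads and an interval of 0.694 to 2.03 TPM, and was 24.7-fold below CHLA 04. Without CHLA 04 replicate 1, CHLA 02 was the highest line at 16.7-fold above CHLA 05, and without replicate 2 the CHLA 04 fold was 34.1. The CHLA 04 replicates enclosed or nearly enclosed the values of CHLA 02 and CHLA 06, so the order of the 3 other lines is not resolved.

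DKK1 and DKK2 were low and had no reads in either CHLA 04 library. DKK2 had 3.10 TPM in CHLA 02, 4.69 and 3.29 in the CHLA 06 replicates and 0.438 in CHLA 05. DKK1, an inhibitor that is itself a WNT target, had 1.78 TPM in CHLA 02, 2.31 and 2.78 in the CHLA 06 replicates and 0.257 in CHLA 05 (3 reads). Against the floor of CHLA 04, the CHLA 06 mean was at least 20.5-fold higher for DKK2 and at least 6.43-fold higher for DKK1.

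Upstream of DKK1 lay the only match among the 39 promoters of the 31 genes with a RefSeq promoter to the motifs that were searched. These were CTTTGAT and CTTTGAA on either strand, which are forms of the TCF/LEF binding motif. CTTTGAT was found in 0 of the 39 and in 2.62% of all 35116 promoters of 300 bases, and CTTTGAA in 1 of the 39, or 2.56%, and in 4.43% of all. The sequence is chr10:52314031-52314280, plus strand (RefSeq, GRCh38.p14), it ends before the start at 52314281, and capitals mark the match. Binding was not measured. The window overlaps an exon of PRKG1-AS1 on the opposite strand in the GENCODE release 44 annotation.
DKK1: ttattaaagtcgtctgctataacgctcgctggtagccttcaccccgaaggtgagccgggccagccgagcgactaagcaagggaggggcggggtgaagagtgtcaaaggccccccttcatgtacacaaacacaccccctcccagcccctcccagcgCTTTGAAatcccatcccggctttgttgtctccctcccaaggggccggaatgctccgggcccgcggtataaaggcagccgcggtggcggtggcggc

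Beta-catenin and its destruction complex were expressed at high levels in all lines. CTNNB1, which encodes beta-catenin, had 394 TPM in CHLA 02, 617 and 513 in the CHLA 04 libraries, 249 in CHLA 05, and 337 and 316 in the CHLA 06 libraries, with 2.27-fold between CHLA 04 and CHLA 05. With the most abundant transcript in place of the gene sum, CTNNB1 was no longer variable. APC had 117 TPM in CHLA 02, 108 and 93.2 in the CHLA 04 replicates, 94.1 in CHLA 05, and 49.6 and 46.1 in the CHLA 06 replicates. CHLA 06 was the low line for APC, 2.43-fold below CHLA 02 and, without CHLA 02, 2.11-fold below CHLA 04. Exons of APC overlap those of CTC-554D6.1 on the same strand, which had up to 13.4 TPM, and how shared reads were split is not given. AXIN1, the scaffold of the complex, was not variable and ranged from 20.9 to 33.7 TPM.

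Among the nuclear factors, TCF7L1 carried the difference. TCF7L1, a member of the TCF family that mostly represses its targets and is high in embryonic stem cells, had 50.9 TPM in CHLA 02, 224 and 203 in the CHLA 04 libraries, 52.2 in CHLA 05, and 11.2 and 11.1 in the CHLA 06 libraries. CHLA 04 was above and CHLA 06 below all other lines, with 19.1-fold between them, and the intervals of CHLA 02 and CHLA 05 overlapped. TCF7L2 was even across lines, with 28.8 to 49.5 TPM. TCF7, the family member of T cells, had 1.42 TPM in CHLA 02, 4.20 and 6.91 in the CHLA 04 replicates, 8.67 in CHLA 05, and 2.83 and 2.76 in the CHLA 06 replicates. Its exons overlap those of SKP1 on the opposite strand, and it was no longer variable when the most abundant transcript replaced the sum. LEF1 was low, at 1.61 TPM or less, and had only 1 read in the 2 CHLA 06 libraries together.

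The stretches upstream of TCF7L1 and FZD8 each hold 24 CpG in 250 bases, just above the upper quartile of 23 given above. They are chr2:85133142-85133391 on the plus strand for TCF7L1 and chr10:35642297-35642546 on the minus strand for FZD8 (RefSeq, GRCh38.p14), and capitals mark CpG. Over the 39 promoters of the WNT genes, the median GC content was 67.0% and the median ratio of observed to expected CpG was 0.769, against 58.7% and 0.579 for all promoters.
TCF7L1: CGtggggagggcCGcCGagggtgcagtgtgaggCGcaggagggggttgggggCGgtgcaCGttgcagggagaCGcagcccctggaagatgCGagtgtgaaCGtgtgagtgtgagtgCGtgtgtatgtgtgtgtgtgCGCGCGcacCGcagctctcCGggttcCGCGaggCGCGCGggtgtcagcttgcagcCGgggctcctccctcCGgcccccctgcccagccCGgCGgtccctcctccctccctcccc
FZD8: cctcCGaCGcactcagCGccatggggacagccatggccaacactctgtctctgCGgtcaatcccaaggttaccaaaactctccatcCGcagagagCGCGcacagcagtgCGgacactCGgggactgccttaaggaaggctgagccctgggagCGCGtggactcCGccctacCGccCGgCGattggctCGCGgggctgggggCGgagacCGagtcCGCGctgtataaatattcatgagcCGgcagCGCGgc

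The feedback targets were highest in CHLA 05, except for AXIN2. RNF43 had 0.317 TPM in CHLA 02, 0.0664 and 0 in the CHLA 04 libraries, 10.1 in CHLA 05, and 0.668 and 0.650 in the CHLA 06 libraries. The CHLA 05 value rests on 283 reads, with an interval of 8.97 to 11.3 TPM, whereas both CHLA 04 libraries together had 1 read. Some exons overlap those of SUPT4H1 on the same strand, which had up to 57.9 TPM. How shared reads were split is not given, which leaves some uncertainty for RNF43. ZNRF3, its relative, had 9.71 TPM in CHLA 02, 10.7 and 11.1 in the CHLA 04 replicates, 26.7 in CHLA 05, and 4.76 and 6.57 in the CHLA 06 replicates, with 4.72-fold between CHLA 05 and CHLA 06. NKD1, an inhibitor of Dishevelled, reached 1.96 TPM in CHLA 05 and at most 0.605 TPM in the other libraries, a difference of 0.87 that stayed under 1.

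AXIN2, the target gene most often read as a measure of canonical signaling, was not variable, with a difference of 0.76 in log2(TPM + 2). It had 12.5 TPM in CHLA 02, 17.7 and 9.06 in the CHLA 04 libraries, 10.8 in CHLA 05, and 6.63 and 7.47 in the CHLA 06 libraries. The CHLA 04 replicates enclosed the values of CHLA 02 and CHLA 05, and only the 2 CHLA 06 libraries lay below all others. With CHLA 04 replicate 1 alone for that line, or with the maximum of technical replicates, the difference passed 1 and AXIN2 was variable. Exons of AXIN2 overlap those of CTD-2535L24.2 on the same strand, which had up to 8.53 TPM, and how shared reads were split is not given.

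Read line by line with CHLA 02 included, CHLA 05 had the most genes above all other lines and CHLA 06 the most below. The same held over all detected genes, so this order is not particular to the WNT genes. Above all other lines by 1 or more in log2(TPM + 2) were FZD3, RNF43, WNT7B and ZNRF3 in CHLA 05, 4 of 34 where 5.04% of all detected genes were. TCF7L1 alone was so in CHLA 04, where the share of all genes was 2.54%, and WNT2 alone in CHLA 06, where it was 1.59%. Below all other lines were FZD5, FZD8, TCF7L1 and WNT7B in CHLA 06, 4 of 34 where 4.91% of all genes were. WNT3 was so in CHLA 04 and DKK3 in CHLA 05, with shares of all genes of 2.6% and 1.22%. In CHLA 02 none of the 34 stood above or below all other lines, and 0.131% and 0.0312% of all genes did.

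CHLA 02 lay between CHLA 04 and CHLA 06 for 24 of the 34 genes, where it did so for 61.3% of all detected genes. For WNT5B, WNT2, FZD8 and TCF7L1, the genes with the largest difference between CHLA 04 and CHLA 06, it was between them in each case. This was not particular to CHLA 02. CHLA 05 also lay between them for WNT5B, FZD8 and TCF7L1, at 13.9, 76.6 and 52.2 TPM, and like CHLA 04 had no reads of WNT2. Without CHLA 02, those above both other lines were DKK1, DKK2, FZD6, FZD7, WNT2 and WNT5B in CHLA 06, where 7.75% of all genes were, and FZD1, LRP6 and TCF7L1 in CHLA 04, where 5.35% were. CHLA 05 had the 4 genes named above, where 5.43% of all genes were. The genes below both others were also those named above, 4 in CHLA 06, 1 in CHLA 04 and 1 in CHLA 05, with shares of all genes of 9.58%, 3.5% and 1.34%.

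**Figure D4:**
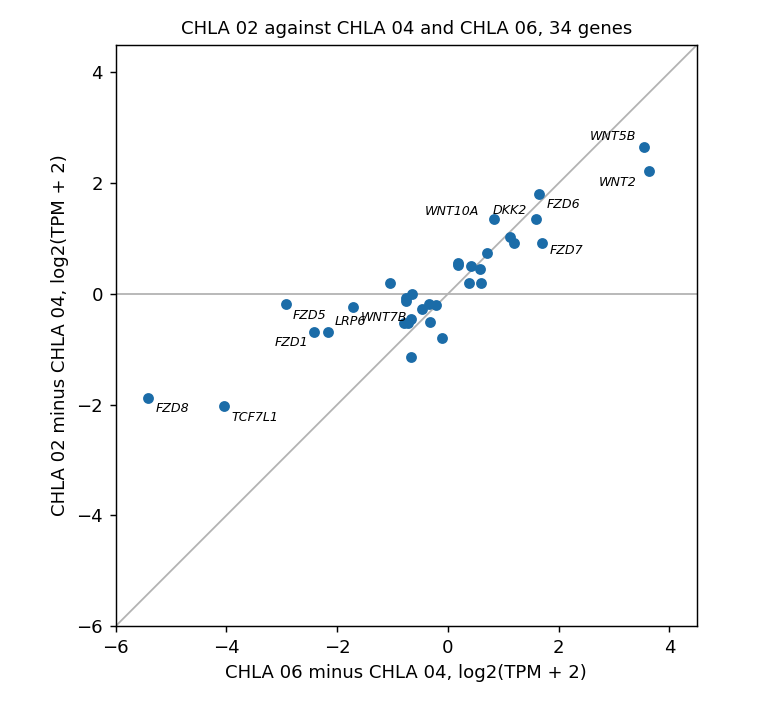
Position of CHLA 02 relative to CHLA 04 and CHLA 06 for the 34 detected WNT genes. The x axis is the difference of CHLA 06 from CHLA 04 and the y axis that of CHLA 02 from CHLA 04, both in log2(TPM + 2), with 1 point per gene. Points between the horizontal line at 0 and the diagonal, 24 of 34, are genes for which CHLA 02 lies between the other lines.

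Most reads on LTR elements inside the WNT genes fell on elements that lie on the strand of the gene. The same share over the elements inside all genes is not given here, so this is not read as a trait of the WNT genes. The files list 266 elements within 26 of the 46 genes, 67 of them on the strand of the gene. Reads fell on 43 elements, with 1661 on elements of the gene strand and 55 on the others, and no element with reads overlapped an exon. In TCF7L1, the LTR12B element at chr2:85155146-85155518 had 29 reads in CHLA 02, 60 and 104 in the CHLA 04 replicates, 23 in CHLA 05, and 7 and 8 in the CHLA 06 replicates. In LRP6, the MER21C element at chr12:12236447-12237280 had 64 reads in CHLA 02, 70 and 104 in the CHLA 04 libraries, 19 in CHLA 05, and 22 and 19 in the CHLA 06 libraries. CHLA 04 led for both elements, as it did for both genes. Of the 9 elements in FZD3, the 2 with reads had 38 in CHLA 05 and 1 to 6 in each other library, and CHLA 05 was also the line with the most FZD3. LTR values were scaled over LTR elements alone and are not compared with gene TPM, and each line gives only 1 independent point.

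Other genes of the pathway, in 8 lists with 115 genes outside the 46, were read in the same way. These lists were chosen with earlier results of these data known, so their shares are a description and not an independent comparison with all genes. Of these, 103 were detected in a line and 66, or 64.1%, were variable, with a median difference of 1.33 in log2(TPM + 2), against 0.88 and 43% for all genes. By list, 4 of 5 detected R-spondin and LGR genes, 7 of 9 alternative receptors, 8 of 13 extracellular inhibitors, 15 of 18 further targets, 1 of 2 genes of ligand secretion, 11 of 18 nuclear cofactors, 11 of 15 genes of planar cell polarity and 9 of 23 cytoplasmic genes were variable. Without CHLA 02 the counts were the same in each list, and 41.3% of all genes were variable.

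LGR5, an R-spondin receptor, had the largest difference of the 103 genes, 9.12 in log2(TPM + 2). R-spondins bind LGR4 to LGR6 and block RNF43 and ZNRF3, which keeps Frizzled at the membrane. LGR5, a marker of intestinal and other stem cells, had 584 TPM in CHLA 02, 0.0845 and 0.435 in the CHLA 04 replicates, 5.58 in CHLA 05, and 1392 and 1114 in the CHLA 06 replicates. LGR4 had 159.8 TPM in CHLA 02, 5.01 and 4.88 in the CHLA 04 libraries, 104 in CHLA 05, and 360.0 and 264 in the CHLA 06 libraries. Both receptors were thus lowest in CHLA 04 and highest in CHLA 06. The ligand RSPO4 had 14.9 TPM in CHLA 02, 21.6 and 22.3 in CHLA 06 and at most 0.262 in the other libraries, whereas RSPO2 reached 2.98 TPM in CHLA 05 and at most 0.258 elsewhere.

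Of the 2 genes of ligand secretion PORCN was variable and WLS was not, and SFRP1 had the largest difference of the extracellular inhibitors, 8.15 in log2(TPM + 2). PORCN, the acyltransferase that every WNT protein needs for secretion, had 77.8 TPM in CHLA 02, 8.58 and 8.53 in the CHLA 04 replicates, 8.55 in CHLA 05, and 178 and 187 in the CHLA 06 replicates. WLS, the carrier of WNT proteins, was even, with 60.1 and 99.9 TPM in the CHLA 06 replicates enclosing all other libraries. SFRP1, a secreted decoy for WNT proteins, had 153 TPM in CHLA 02, 593 and 711 in the CHLA 04 libraries, 3.14 in CHLA 05, and 0.297 and 0.317 in the CHLA 06 libraries. KREMEN2, a partner of DKK1, was highest in CHLA 06 at 67.4 and 56.7 TPM and lowest in CHLA 04 at 0.761 and 0.593 TPM. WIF1, another secreted inhibitor, had 13.9 TPM in CHLA 05 and at most 1 read in a CHLA 04 library, and IGFBP4 was highest in CHLA 05 at 55.1 TPM and lowest in CHLA 06 at 1.35 and 1.60 TPM.

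Alternative receptors and surface proteoglycans also split CHLA 06 from CHLA 04. The glypicans GPC3 and GPC4 had 2.14 TPM or less in CHLA 06, against 265 TPM or more for GPC3 and 71.8 TPM or more for GPC4 in CHLA 04. SDC4 and MUSK had the opposite order, with 143 and 146 TPM of SDC4 and 90.2 and 95.3 TPM of MUSK in CHLA 06, and at most 0.362 and 2.08 TPM in CHLA 04. In CHLA 02 all 4 genes were well expressed, at 12.8 to 478 TPM.

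Further targets included the stem cell and growth genes of the list. MYC had 79.7 TPM in CHLA 02, 0.612 and 0.937 in the CHLA 04 replicates, 1.44 in CHLA 05, and 94.1 and 72.1 in the CHLA 06 replicates. BMP4 and TNFRSF19 were also high in CHLA 02 and CHLA 06, with 219.9 and 378 TPM in CHLA 02, whereas in CHLA 05 they had 0.0800 and 1.39 TPM. Their CHLA 04 levels are not given here, so no match to the order of MYC in that line is stated. SALL4, a stem cell factor, was low in CHLA 05 alone, at 0.970 TPM against 25.7 TPM or more elsewhere.

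Among nuclear cofactors, the TLE corepressors of the TCF factors differed in CHLA 05. TLE4 had 10.3 TPM in CHLA 02, 39.7 and 29.0 in the CHLA 04 libraries, 209 in CHLA 05, and 0 and 0.0419 in the CHLA 06 libraries, and TLE1 was also highest in CHLA 05 at 70.5 TPM. TLE3 and TLE2 were low in CHLA 05 alone, at 1.80 and 2.51 TPM, against 40.5 and 27 TPM or more in the other libraries. CHLA 05 thus had much TLE4 and TLE1 and little TLE2 and TLE3, and CHLA 06 had almost no TLE4.

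Of the cytoplasmic and planar polarity genes, CCDC88C and CXXC4, both inhibitors that bind Dishevelled, were highest in CHLA 05 at 70.9 and 35.5 TPM and lowest in CHLA 06 at 2.58 TPM or less and 0.441 TPM or less. CXXC5 was lowest in CHLA 06, at 9.77 and 6.31 TPM. APC2, the neural relative of APC, had 229 and 89.6 TPM in the CHLA 04 replicates and 12.4 and 7.17 in CHLA 06, so that its technical replicates differed widely within CHLA 04. Of the planar polarity genes, CELSR2 and CELSR3 were lowest in CHLA 06, at 4.25 TPM or less and 11.3 TPM or less. INTU was highest in CHLA 05 at 139 TPM, and PRICKLE3 had no reads in CHLA 04 and 16.4 and 18.4 TPM in CHLA 06.

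**Figure D5:**
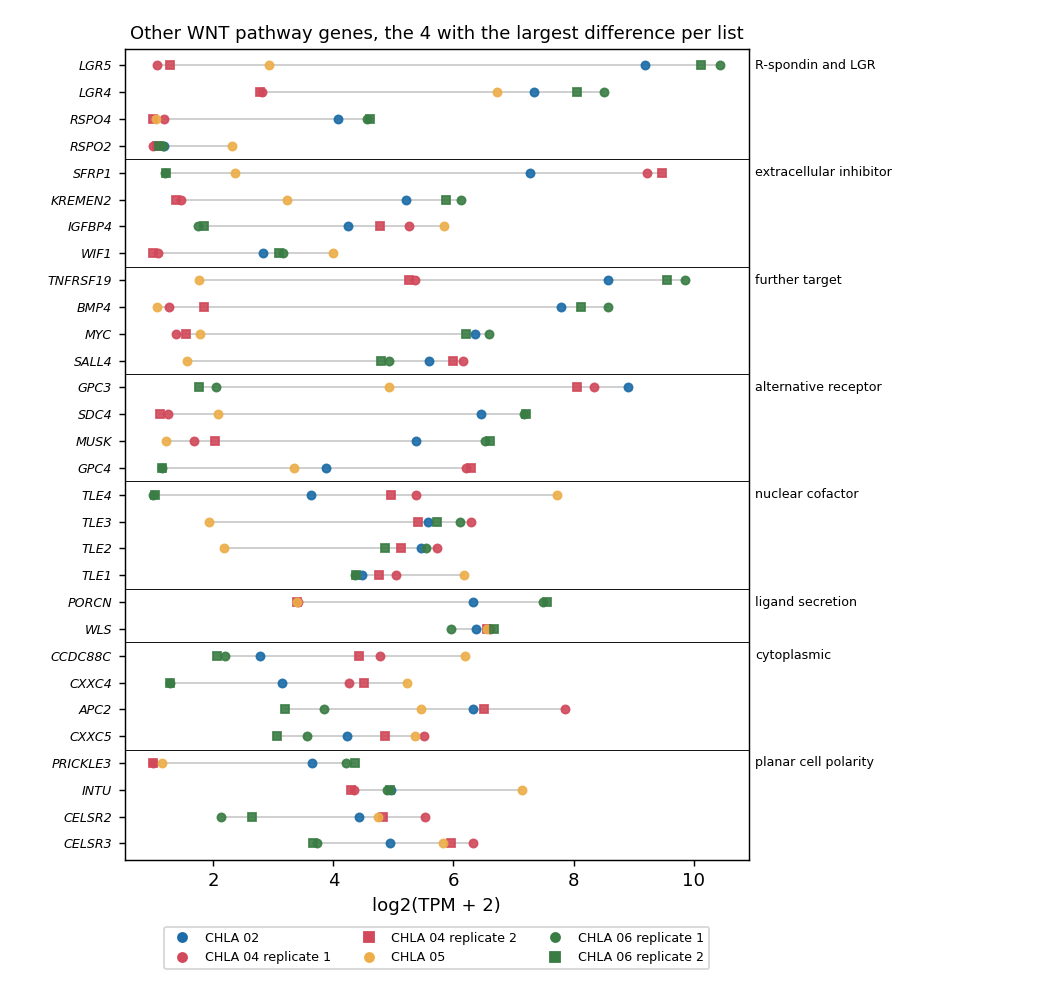
Level of pathway genes outside the 46, the up to 4 per list with the largest difference between lines, in each library in log2(TPM + 2). Symbols are those of the plot of WNT genes by library. LGR5, SFRP1 and TNFRSF19 span the widest range. For LGR5, LGR4, SFRP1 and PORCN CHLA 02 lies between CHLA 04 and CHLA 06, and for LGR5, LGR4 and SFRP1 so does CHLA 05. CHLA 02 lies between them for 78 of the 103 detected genes of these lists and for 61.3% of all detected genes.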

How the data were processed

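Total RNA of 4 AT/RT cell lines was sequenced as stranded 125 bp paired-end libraries (6 libraries, 12 files). Per the labels and the methods of the study, the authors processed reads with CASAVA 1.8.2, FastQC and Trimmomatic, mapped them to GRCh38 with Ensembl release 82 in CLCbio Genomics Workbench (RNA-Seq tool, default settings), and deposited TPM per transcript. A separate mapping to RepeatMasker LTR elements gave the second deposited TPM, scaled over LTR elements alone. Other tool versions and the strand setting are not given in the sources used here. TPM was summed per gene identifier over 173113 transcripts, and technical replicates were averaged within a line.

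TPM times length fell on whole multiples of 1 step per library for at least 99.6% of transcript values (tolerance 0.05 of a step). A step was taken as 1 counted read or read pair. Depth was 10265899 to 20520229 reads on transcripts and 355302 to 511408 on LTR elements, so that 1 read on 1000 bp was worth 0.117 to 0.236 TPM. The recovery and the calls were tested on simulated data.

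Genes at 1 TPM or more in a line were compared in log2(TPM + 2), as the largest difference between line means. With 1 biological sample per line no test was made. Every gene of the rule at 1 TPM or more was named with its values, and from each other pathway list the up to 4 genes with the largest difference were named. Members and lists were chosen with earlier results of these data known. Alternatives were other pseudocounts, detection limits and differences, other scalings, the most abundant transcript, the maximum of technical replicates and leaving out each replicate, and, chosen after seeing the data, leaving out CHLA 02. RefSeq promoters (GRCh38.p14) were given for 31 of the 46 genes, and exons overlap those of another gene for 11. Python 3.11.15, pandas 2.3.3, numpy 2.4.6 and scipy 1.17.1 were used.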

Additional observations from a re-analysis of the deposited data

How the results depend on the processing

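The number of WNT genes detected in at least 1 line was 34 to 36 and in all lines 20 to 21 when a technical replicate was left out, and with a limit of 5 TPM the latter fell to 13. The count of variable genes was 23 under each left-out replicate and 12 at a difference of 2. Genes above all other lines in CHLA 04 numbered 0 at a difference of 2, 2 with the maximum of technical replicates, 3 without CHLA 02, and 1 to 2 with a replicate left out. In CHLA 06 they numbered 0 at a difference of 2, 2 each with the most abundant transcript, median-of-ratios scaling or the maximum of replicates, 6 without CHLA 02, and 1 to 2 with a replicate left out. Genes below all others in CHLA 04 numbered 2 with a pseudocount of 1, 6 with a pseudocount of 0.1, 2 with median-of-ratios scaling, and 0 at a difference of 2, with a 5 TPM filter, with quantile normalization and with the maximum of replicates. The cause of these changes was not tested. Median-of-ratios scaling shifted the median of all genes in log2 by -0.11 in CHLA 04, -0.081 in CHLA 05 and 0.11 in CHLA 06. For the 23 variable WNT genes and the 66 variable genes of the other pathway lists, the highest line stayed above the lowest with the most abundant transcript, both other scalings, the maximum of replicates and each replicate left out. Other directions were not compared. Without CHLA 04 replicate 1, which has the highest floor, the lower bounds of the fold were 153 for WNT2, 33.4 for DKK2 and 10.5 for DKK1, and without CHLA 04 replicate 2 that of FZD6 was 26.6, against CHLA 04. No paired analysis was possible because no result came from a test, each line having 1 biological sample. Depth limits statements on genes near 1 TPM, where a library holds few reads. CHLA 02 and CHLA 05 had no technical replicate, and the spread between cultures was not measured in any line.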
